A study of Homo sapiens with 6 samples.

Results

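The 41 mitosis and G2/M genes examined here encode the cyclins, kinases, checkpoint proteins, kinetochore proteins, motors and spindle proteins that take a cell from the end of DNA synthesis through division. They were chosen by name, and each was represented by its probe set in the deposited array table with the highest mean over all 6 arrays. All 41 were measured, each by a single named probe set, out of 17687 named genes and 21448 probe sets in the table. Their levels were compared between HS578T cells stably transfected with the expression vector pcDNA 3 carrying EP300 cDNA (the EP300 cultures) and HS578T cells with pcDNA 3 alone (the control cultures). Each group had 3 independent cultures with an array each, grown in low-glucose DMEM with fetal calf serum, glutamine, insulin and the selection drug G418. The cells of each condition were pools of drug-resistant clones, and the sources used here do not say if a single pool gave rise to all 3 cultures of a condition. HS578T cells come from a human breast carcinoma and look mesenchymal, pcDNA 3 drives its insert from a viral promoter that is active in most cell types, and EP300 encodes the lysine acetyltransferase p300, a transcriptional co-activator. The comparison asks whether mitotic transcripts are at another level in cells that carry the EP300 cDNA.

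Transcription of these genes is periodic. It is held down in resting and G1 cells by the DREAM complex, which contains the MuvB core, and is switched on in late S phase and G2 when MuvB joins B-MYB (MYBL2) and FOXM1. Many of the promoters carry a cell cycle genes homology region, which MuvB binds, and CCAAT boxes, which the factor NF-Y binds, and p300 is among the co-activators that have been found at such promoters. In a growing culture the level of a mitotic transcript depends on the share of cells in G2 and M as well as on the amount per cell, and in RNA from whole cultures these cannot be told apart.

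All 41 genes lay above the array median (4.46 to 4.5 on the log2 scale) on every array, and none was at a constant value. Values are the authors' array values, on a scale taken to be log2 from their range. Array values over all probe sets correlated at 0.978 to 0.98 within the EP300 group, 0.979 to 0.981 within the control group and 0.977 to 0.981 between them. The level of EP300 itself was not analysed here, because no named probe set carried that symbol, so the array labels were not checked by it. The 5 mesenchymal markers of the line were high, with mean levels over all arrays from 10.14 to 19.84. VIM read 18.6 on every array (SD 0.0 in each group), and whether this was a measured level or a tied value was not tested. CDH2 was at 12.82 ± 0.02 and ZEB1 at 10.05 ± 0.08 in EP300 cultures, against 13.12 ± 0.25 and 10.23 ± 0.18 in control cultures (SD, n = 3 each). FN1, CDH2 and SPARC were below control on every EP300 array (60% of these markers, against 5.91% of all probe sets), and the groups overlapped for VIM and ZEB1. None of the 5 passed the test over all probe sets (lowest limma adjusted p 0.856). Luminal and hormone receptor, leukocyte and endothelial markers had mean levels over all arrays of no more than 4.79, 4.67 and 4.88, near or below the array medians.

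No mitotic gene passed the test over all probe sets, and differences in both directions were about equally frequent. Of the 41 differences (EP300 minus control, log2), 22 were above 0 and 19 below, a share of 53.7% above, where 50.2% of all 21448 probe sets were above 0. Their median was 0.01, and the median over all probe sets was 0.00. The differences ran from -0.63 for KIF20A to 0.58 for NEK2, and 39 of the 41 were smaller than 0.5 in size. The median size was 0.21, against 0.20 over all probe sets. Limma called 0 of the 41 at an adjusted p of 0.05, and it called 0.0% of all probe sets. The lowest adjusted p of a member was 0.746. At an unadjusted limma p under 0.05 there were 2 members, which is 4.88% of the list against 6.52% of all probe sets. Both stood above control (3.45% of all probe sets did so) and none below (3.07%). The 95% intervals of the 41 differences together spanned -1.37 to 1.07. Those of 39 genes included 0, and for these a change within the interval could not be told from none. The intervals of NEK2 (0.10 to 1.05) and CCNB2 (0.01 to 0.92) lay above 0. The intervals are not adjusted for the number of probe sets, and neither gene passed the adjusted test. Adjusted p-values below are from limma, with Benjamini-Hochberg adjustment over all 21448 probe sets.

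**Figure D1:**
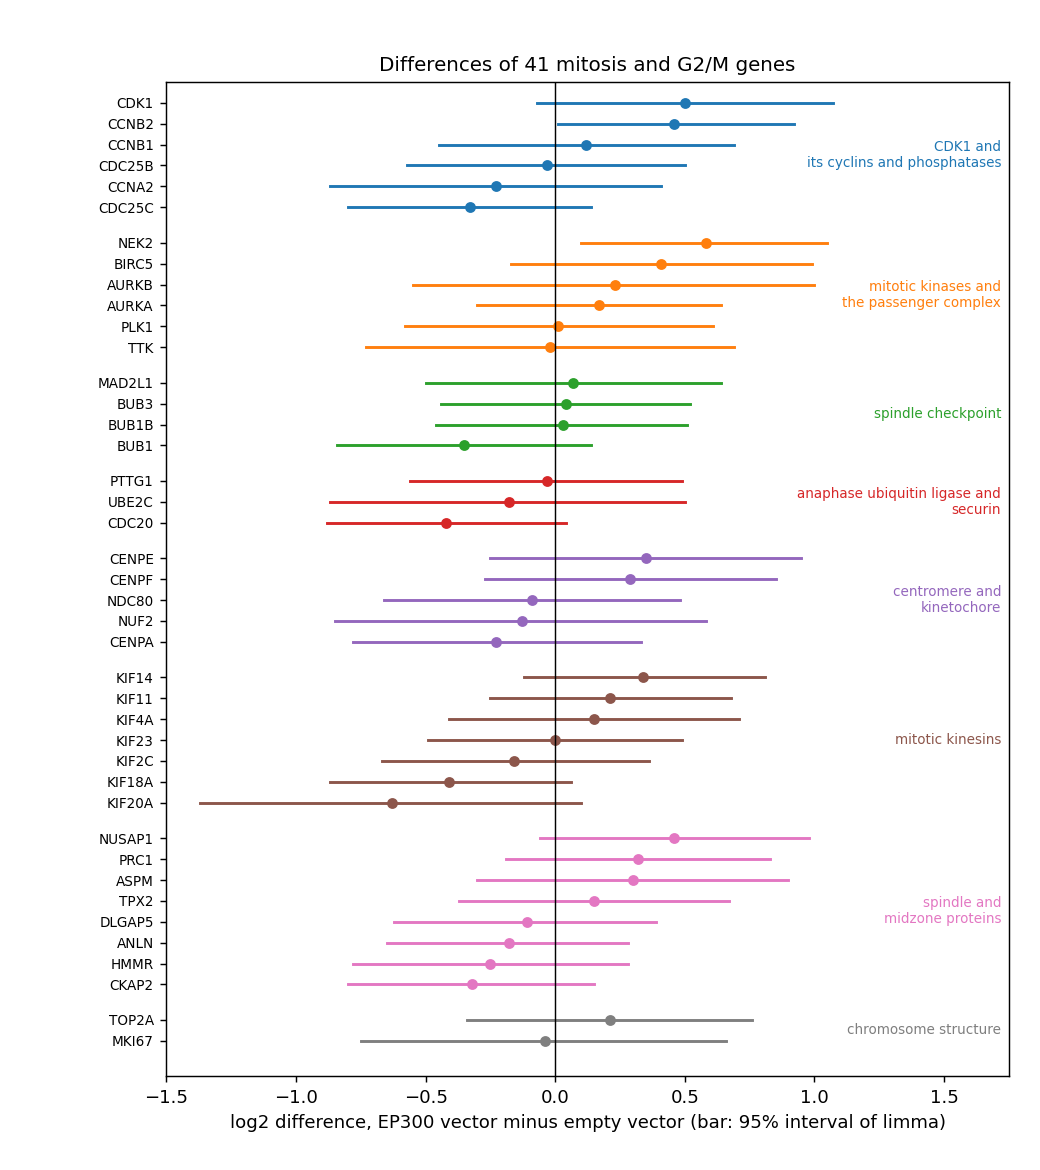
Differences of the 41 mitosis and G2/M genes on the log2 scale (horizontal axis, EP300 vector minus empty vector), grouped by role and coloured by group, with points for limma's estimates and bars for 95% intervals. The intervals of 39 genes include 0, and those of NEK2 and CCNB2 lie just above it.

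The 3 EP300 arrays lay wholly on one side of the 3 control arrays for 8 members, 19.5% of the list, where 12.2% of all probe sets showed such a separation. These 8 split evenly. NEK2, CCNB2, NUSAP1 and KIF14 were above control on every EP300 array (6.3% of all probe sets), and CDC20, KIF18A, CDC25C and CKAP2 were below it (5.91% of all probe sets). For any gene separated in this way an exact permutation test (two-sided) gives 0.1, which is as low as 3 arrays against 3 can go. That value follows from the separation and adds nothing to it. CKAP2 is named after its values were seen.

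**Figure D2:**
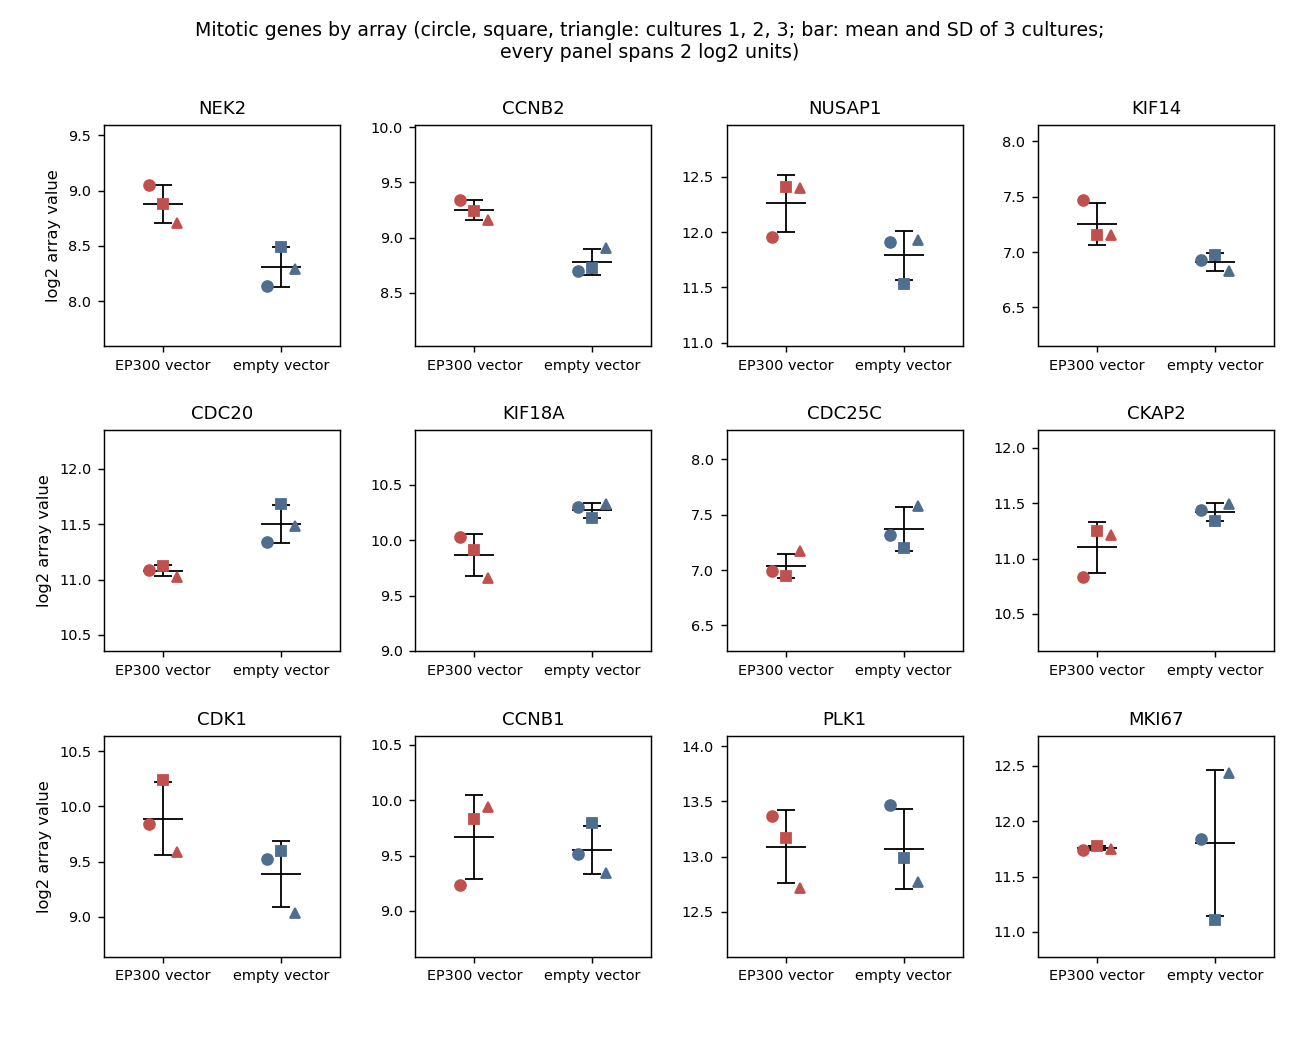
Log2 array values (vertical axes, each spanning 2 log2 units) of 12 mitotic genes on the 3 EP300 arrays and the 3 empty-vector arrays, with circle, square and triangle for cultures 1, 2 and 3 and a bar for the mean and SD. The top row shows the 4 genes with all EP300 arrays above control, the middle row the 4 with all EP300 arrays below it, and the bottom row 4 genes whose groups overlap.

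CDK1, the kinase that drives entry into mitosis, read 9.84, 10.24 and 9.59 in EP300 cultures, against 9.52, 9.60 and 9.04 in control cultures. EP300 cultures 1 and 2 were above every control, and EP300 culture 3 was level with the upper controls. The difference of 0.50 ± 0.26 SE, a 1.41-fold higher level, had an adjusted p of 0.792 in limma, and was 0.32 without EP300 replicate 2 or without control replicate 3. Of its cyclin partners, CCNB2 (cyclin B2) read 9.34, 9.24 and 9.16 in EP300 cultures and 8.70, 8.73 and 8.91 in control cultures. The values were tight within each group and did not overlap, with a difference of 0.46 ± 0.20 SE (1.38-fold, limma adjusted p = 0.765). CCNB1, the main mitotic cyclin, read 9.23, 9.83 and 9.94 in EP300 cultures and 9.51, 9.79 and 9.34 in control cultures. Its groups were interleaved, and its difference was 0.12 (95% interval -0.45 to 0.69). CDC25C, a phosphatase that removes the inhibitory phosphates from CDK1, read 6.99, 6.95 and 7.17 in EP300 cultures, all just below the 7.32, 7.20 and 7.58 of control cultures (-0.33 ± 0.21 SE, limma adjusted p = 0.838). CCNA2 (cyclin A2) and CDC25B, the other members of this group, differed by -0.23 and -0.03. The CDK1 group therefore held 3 genes above 0 and 3 below.

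Among the mitotic kinases, NEK2, a centrosomal kinase that helps separate the spindle poles, had the lowest p of all 41 genes. It read 9.05, 8.88 and 8.71 in EP300 cultures, against 8.14, 8.49 and 8.29 in control cultures. The lowest EP300 value was above the highest control value, and the difference of 0.58 ± 0.21 SE (1.49-fold) had an adjusted p of 0.746 in limma. BIRC5, which encodes survivin of the chromosomal passenger complex, read 7.41, 6.81 and 7.53 in EP300 cultures and 6.6, 7.09 and 6.82 in control cultures. EP300 culture 2 lay among the controls and the other EP300 cultures above them, a difference of 0.41 ± 0.26 SE (limma adjusted p = 0.833). It was 0.27 without EP300 replicate 3 and 0.63 without EP300 replicate 2. PLK1, which acts at centrosomes, kinetochores and the midzone, was at 13.37, 13.17 and 12.72 in EP300 cultures and 13.47, 12.99 and 12.77 in control cultures. The groups covered nearly the same range, and the difference was 0.01 (95% interval -0.58 to 0.61). AURKA, the spindle pole kinase, read 13.04, 13.00 and 13.28 in EP300 cultures and 13.09, 12.95 and 12.77 in control cultures, a difference of 0.17 ± 0.21 SE. AURKB, the kinase of the passenger complex, and TTK, which starts checkpoint signalling at kinetochores, differed by 0.23 and -0.02. Of these 6 genes 5 were above 0, with a median of 0.20.

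In the spindle checkpoint group, which holds back anaphase until the chromosomes are attached, 3 of 4 genes differed by less than 0.1. MAD2L1, BUB3 and BUB1B were at 0.07, 0.04 and 0.03. BUB1, the kinetochore kinase of the checkpoint, read 9.83, 9.59 and 9.69 in EP300 cultures and 10.13, 9.78 and 10.24 in control cultures. EP300 culture 1 reached just above the lowest control, and the difference was -0.35 ± 0.22 SE (limma adjusted p = 0.83). CDC20 activates the anaphase-promoting complex (APC/C), the ubiquitin ligase that ends mitosis. It read 11.09, 11.12 and 11.02 in EP300 cultures, all below the 11.34, 11.68 and 11.48 of control cultures. Its difference of -0.42 ± 0.20 SE had an adjusted p of 0.787 in limma. UBE2C, the ubiquitin-conjugating enzyme of the complex, and PTTG1 (securin), one of its substrates, differed by -0.18 and -0.03.

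At the centromere and kinetochore, 2 of 5 genes were above 0. CENPA, the centromeric histone H3 variant, read 5.57, 5.75 and 5.80 in EP300 cultures and 5.88, 5.56 and 6.36 in control cultures. The EP300 values lay within the range of the controls, with a difference of -0.23 ± 0.25 SE that was -0.01 without control replicate 3 and -0.41 without control replicate 2. The large kinetochore proteins CENPE and CENPF differed by 0.35 and 0.29, and the NDC80 complex subunits NDC80 and NUF2 by -0.09 and -0.13.

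The mitotic kinesins, motor proteins that move along microtubules, held the lowest difference of the list and went both ways. KIF20A, a motor of the central spindle needed for cytokinesis, read 11.46, 11.39 and 10.63 in EP300 cultures, against 12.32, 11.83 and 11.23 in control cultures. EP300 cultures 1 and 2 lay above the lowest control, so the groups overlapped, and the difference of -0.63 ± 0.33 SE (1.55-fold lower) had an adjusted p of 0.792 in limma. Without EP300 replicate 3, or without control replicate 1, the difference was -0.37. KIF18A, which restrains chromosome movement at the metaphase plate, read 10.03, 9.91 and 9.66 in EP300 cultures, below the 10.30, 10.20 and 10.33 of control cultures (-0.41 ± 0.21 SE, limma adjusted p = 0.792). KIF14, a motor that acts in cytokinesis, read 7.47, 7.15 and 7.15 in EP300 cultures, above the 6.93, 6.97 and 6.83 of control cultures (0.34 ± 0.21 SE, limma adjusted p = 0.822). Motors thus stood on both sides of control without overlap. KIF11, the motor that pushes the spindle poles apart, read 9.37, 9.65 and 9.60 in EP300 cultures and 9.37, 9.19 and 9.42 in control cultures, a difference of 0.21 ± 0.21 SE. KIF4A, KIF23 and KIF2C differed by 0.15, 0.00 and -0.16.

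Of the 8 spindle and midzone genes 4 were above 0 and 4 below. NUSAP1, a microtubule-binding spindle protein, read 11.96, 12.41 and 12.40 in EP300 cultures and 11.91, 11.53 and 11.93 in control cultures. The lowest EP300 value was only just above the highest control, and the difference was 0.46 ± 0.23 SE (1.38-fold, limma adjusted p = 0.791). TPX2, which activates AURKA on the spindle, read 12.92, 12.65 and 12.57 in EP300 cultures and 12.58, 12.27 and 12.85 in control cultures, a difference of 0.15 ± 0.23 SE. CKAP2, a spindle protein, read 10.83, 11.25 and 11.21 in EP300 cultures and 11.44, 11.34 and 11.49 in control cultures, a difference of -0.32 ± 0.21 SE (limma adjusted p = 0.844), or -0.19 without EP300 replicate 1. The midzone bundling protein PRC1 and the spindle pole protein ASPM differed by 0.32 and 0.30, and DLGAP5, the cleavage furrow protein ANLN and HMMR by -0.11, -0.18 and -0.25.

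MKI67, which encodes the proliferation marker Ki-67, read 11.74, 11.78 and 11.75 in EP300 cultures and 11.84, 11.11 and 12.44 in control cultures. The EP300 cultures were nearly identical (SD 0.02) while the controls spread on both sides of them (SD 0.66), and the difference was -0.04 (95% interval -0.75 to 0.66). TOP2A, the topoisomerase that untangles chromosomes before they separate, read 13.10, 13.45 and 13.21 in EP300 cultures and 12.64, 13.13 and 13.35 in control cultures. The groups overlapped, with a difference of 0.21 ± 0.25 SE that was 0.01 without control replicate 1, 0.11 without EP300 replicate 2 and 0.37 without control replicate 3. Both differences were smaller than the spread between control cultures.

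The 41 genes did not move as a block from array to array. On EP300 arrays 1, 2 and 3, 20, 18 and 22 of the 41 genes were above their own mean over the 6 arrays, and on control arrays 1, 2 and 3 the counts were 19, 14 and 23. Between 48.8% and 49.6% of all probe sets were above their own mean on each array. The median deviation of the members was -0.02, -0.02 and 0.06 on the EP300 arrays and -0.02, -0.10 and 0.05 on the control arrays. Control array 2 was thus the lowest for these genes, and the EP300 values lay inside or at the edge of the range of the controls. Control array 3 was the highest of the 6 for 11 genes and EP300 array 3 for 9.

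**Figure D3:**
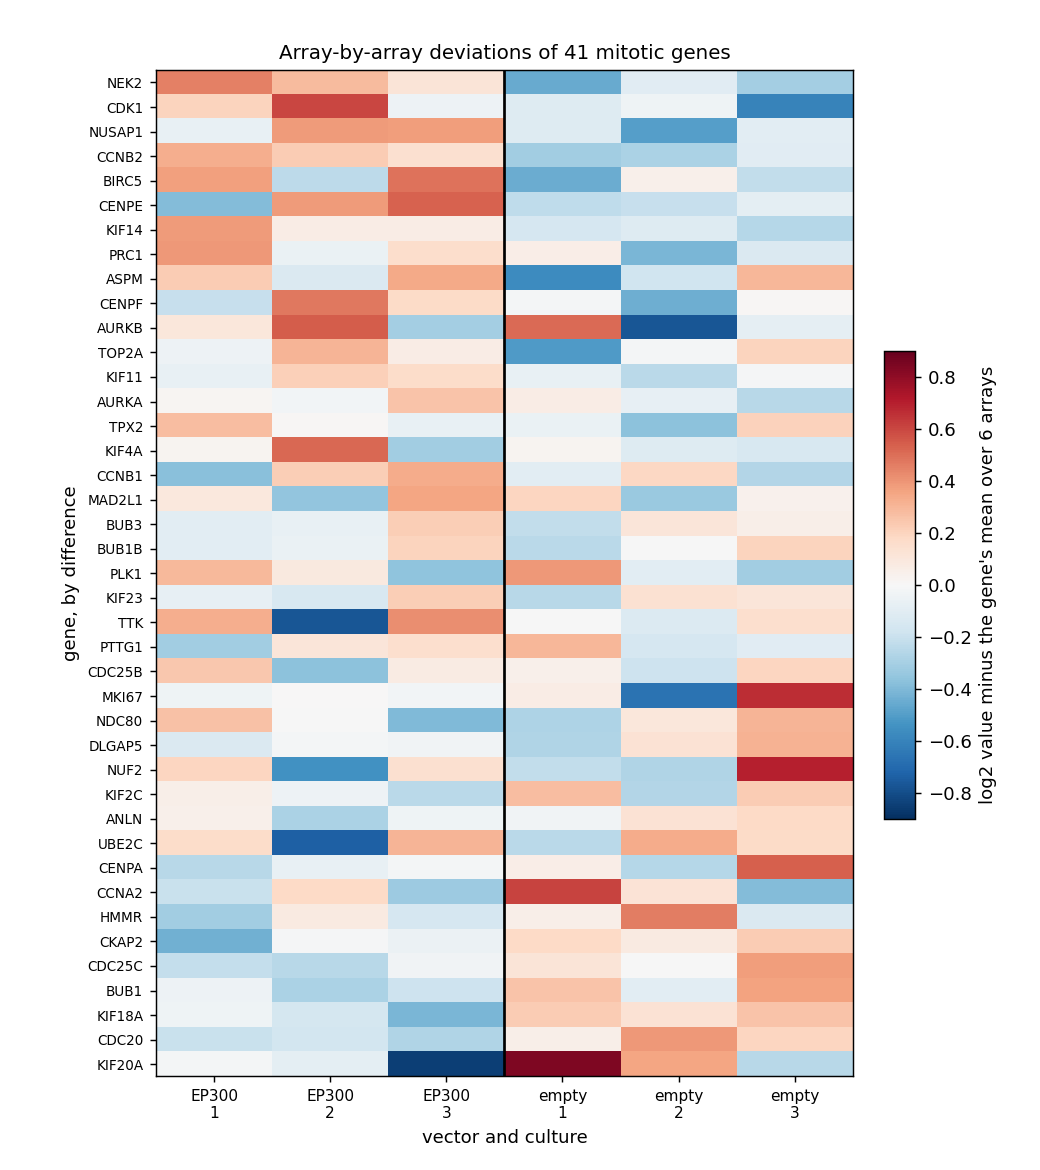
Deviation of each of the 41 genes from its own mean over 6 arrays (colour, log2 units, red above and blue below), with arrays in columns, EP300 arrays left of the line and empty-vector arrays right of it, and genes ordered by their difference. No array is red or blue throughout, and single arrays stand out for single genes, such as control array 1 for KIF20A and control array 3 for MKI67.

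The spread between cultures was of the size seen elsewhere on the arrays. The within-group SD had a median of 0.26 over the 41 genes, against 0.31 over all probe sets. It was lowest for CCNB2 (0.11) and highest for AURKB (0.55). AURKB, TTK and UBE2C, named here after their values were seen, each had cultures that stood apart from others of their group. AURKB read 7.64, 8.08 and 7.23 in EP300 cultures and 8.05, 6.77 and 7.46 in control cultures. TTK read 10.48, 9.38 and 10.57 in EP300 cultures and 10.15, 10.03 and 10.30 in control cultures, and UBE2C was likewise lowest in EP300 culture 2, at 7.60. AURKB was lowest in control culture 2, as was MKI67.

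Many promoters of these genes hold the motifs named above. The choice of known mitotic genes was not independent of such motifs. Promoter windows of 300 bases (250 before to 50 after the annotated start) were found in a RefSeq table of GRCh38.p14 for 35 of the 41 genes, with 44 windows in all, since 5 genes had several. The core of the cell cycle genes homology region, searched as TTTGAA on both strands, occurred in 26 of the 44 windows (59.1%), against 12.4% of the 22199 windows of protein-coding genes. The CCAAT box, searched as CCAAT on both strands, occurred in 33 of 44 (75%), against 34.7%. Both stood in the same window in 22 of 44 (50%), against 4.97%, and they overlapped each other in 1 member window. At least 2 CCAAT boxes were found in 40.9% of member windows, against 11.4%. The core TATAAA of the TATA box, searched in the same way, was found in 6.82% of member windows, against 9.47%. Counted by gene, 24 of 35 members had TTTGAA and 28 of 35 had CCAAT. A match describes letters in the window and is not evidence of a bound factor. Only these exact letters were searched, so a homology region with other letters was not counted.

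**Figure D4:**
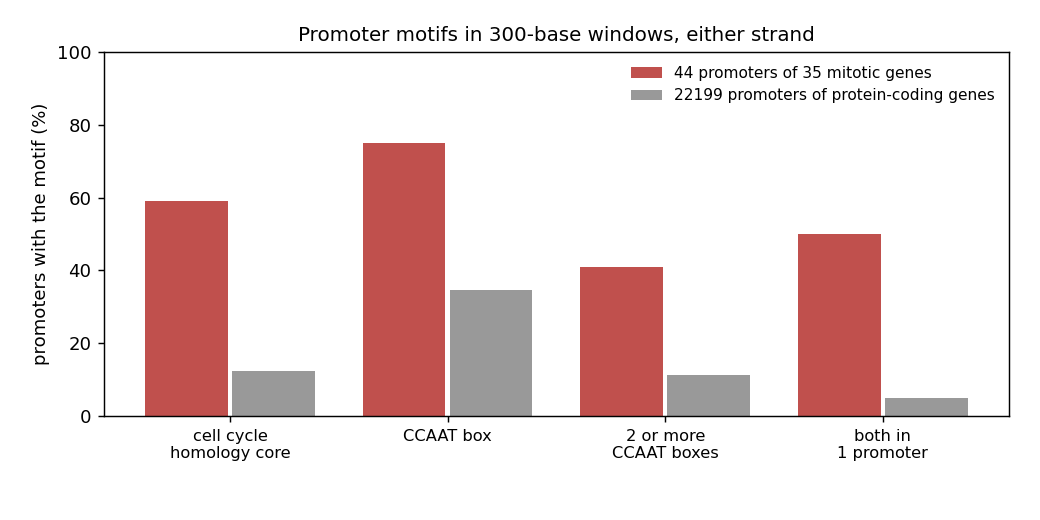
Share of 300-base promoter windows (vertical axis, percent) that hold the cell cycle homology core, the CCAAT box, at least 2 CCAAT boxes, or the homology core and the CCAAT box together, for 44 windows of 35 mitotic genes (red) and 22199 windows of protein-coding genes (grey). The red bars are higher for every motif shown, 50% against 4.97% for both in 1 window.

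Genes with these letters and genes without them stood on both sides of 0. The 24 genes with TTTGAA had a median difference of 0.02 (14 above 0 and 10 below), and the 11 without had -0.03 (4 above and 7 below). The 20 genes with both motifs in the same window had a median of 0.11, from -0.42 to 0.50 (13 above 0 and 7 below). The other 15 had -0.09, from -0.63 to 0.58 (5 above and 10 below). These lacked the pair but most held one of the motifs, such as CCAAT in NEK2 and KIF20A. The 28 genes with CCAAT had a median of 0.04 (16 above and 12 below), and the 7 without had -0.13 (2 above and 5 below). These medians are a description with no test. The 150 bases before the start are given for the 3 members of smallest limma p on either side of 0. The stretches of CCNB2, NEK2 and NUSAP1 belong to positive differences, and those of CDC20, KIF20A and KIF18A to negative ones. They are written 5′ to 3′ on the gene's strand, from RefSeq with GRCh38.p14 coordinates, with TTTGAA and CCAAT, or their reverse complements, in capitals.
CCNB2, chr15:59104996-59105145, plus strand: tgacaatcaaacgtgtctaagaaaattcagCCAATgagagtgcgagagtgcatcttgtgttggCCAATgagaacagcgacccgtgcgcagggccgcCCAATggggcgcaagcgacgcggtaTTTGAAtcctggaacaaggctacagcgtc
NEK2, chr1:211675622-211675771, minus strand: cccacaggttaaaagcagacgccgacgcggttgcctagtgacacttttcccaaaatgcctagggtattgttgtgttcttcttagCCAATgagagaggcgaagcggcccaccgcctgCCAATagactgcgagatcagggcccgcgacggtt
NUSAP1, chr15:41332731-41332880, plus strand: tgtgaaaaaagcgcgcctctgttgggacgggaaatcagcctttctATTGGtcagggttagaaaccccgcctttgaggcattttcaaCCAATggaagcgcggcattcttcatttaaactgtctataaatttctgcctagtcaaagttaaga
CDC20, chr1:43358831-43358980, plus strand: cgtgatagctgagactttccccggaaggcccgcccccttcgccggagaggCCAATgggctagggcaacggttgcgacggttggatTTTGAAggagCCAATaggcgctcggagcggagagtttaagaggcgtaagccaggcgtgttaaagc
KIF20A, chr5:138178962-138179111, plus strand: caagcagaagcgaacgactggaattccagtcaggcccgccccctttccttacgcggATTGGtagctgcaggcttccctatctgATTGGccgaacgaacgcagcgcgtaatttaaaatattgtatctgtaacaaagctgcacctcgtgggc
KIF18A, chr11:28108157-28108306, minus strand: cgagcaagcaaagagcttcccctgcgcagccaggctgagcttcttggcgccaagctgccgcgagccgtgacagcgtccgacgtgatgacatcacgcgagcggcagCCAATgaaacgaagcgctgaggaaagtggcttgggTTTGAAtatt
The CCNB2 stretch holds 3 CCAAT boxes and 1 TTTGAA, which begins 29 bases before the start. CDC20 has 2 CCAAT boxes and 1 TTTGAA, and KIF18A has 1 of each. NEK2, NUSAP1 and KIF20A have 2 CCAAT boxes each, and no TTTGAA in the stretch shown (NUSAP1 has TTTGAA elsewhere in the sequence searched). NEK2 and KIF20A, at opposite ends of the list at 0.58 and -0.63, thus had the same count of both motifs in the 150 bases shown.

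Other genes of the mitotic machinery gave a similar picture. Of 158 further genes in 7 lists, 147 were measured, and limma called 0 of them at an adjusted p of 0.05. Their differences had a median of 0.06, with 80 above 0 and 67 below. At an unadjusted limma p under 0.05 there were 8 (5.44%, against 6.52% over the whole table), of which 6 had a difference above 0 and 2 below. The groups did not overlap for 22 of them (15%, against 12.2% of all probe sets).

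**Figure D5:**
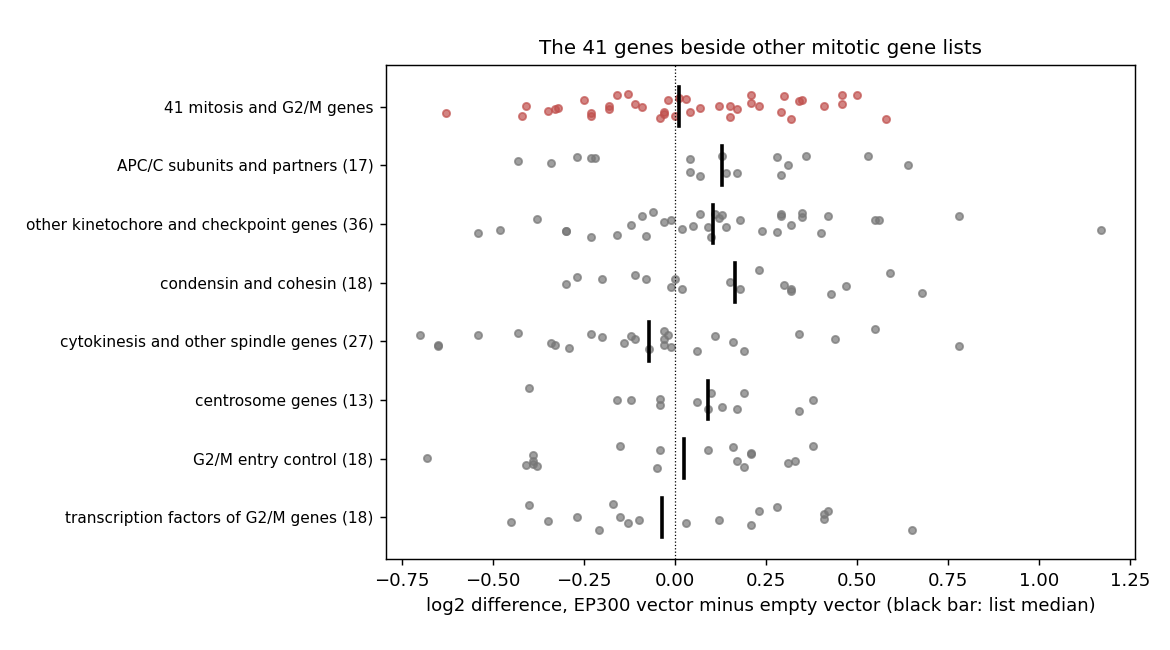
Log2 differences (horizontal axis, EP300 vector minus empty vector) of the 41 mitosis and G2/M genes (red) and of 7 lists of other mitotic genes (grey, number measured in parentheses), a point per gene with a black bar at the list median; points are spread vertically at random. The list medians lie between -0.07 and 0.16, and 1 gene, CENPO, is past 1.

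Among kinetochore and checkpoint genes outside the 41 (36 measured, median 0.10), CENPO, a subunit of the inner kinetochore, read 7.16, 6.52 and 7.05 in EP300 cultures and 6.28, 6.22 and 4.73 in control cultures. Control culture 3 stood far below the other arrays, and the difference of 1.17 ± 0.40 SE (limma adjusted p = 0.74) was 0.66 without it. CENPW, another inner kinetochore subunit, differed by 0.78 ± 0.28 SE (limma adjusted p = 0.746). Condensin and cohesin genes, which encode the rings that compact and hold chromosomes together, had a median of 0.16 over 18 genes, with 11 above 0. In this list the cohesin subunit gene SMC1A read 8.74, 8.60 and 8.85 in EP300 cultures, all above the 8.29, 8.07 and 8.04 of control cultures (0.59 ± 0.21 SE, limma adjusted p = 0.741). The condensin subunit gene NCAPD2 differed by 0.68 ± 0.27 SE (limma adjusted p = 0.748), or 0.45 without EP300 replicate 3, and EP300 culture 2 lay below the highest control.

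APC/C subunits and partners had a median of 0.13 over 17 genes, with 12 above 0. UBE2S, the enzyme that extends ubiquitin chains on APC/C substrates, differed by 0.53 ± 0.22 SE (limma adjusted p = 0.748), and the APC/C subunit gene ANAPC10 by 0.64 ± 0.29 SE (limma adjusted p = 0.771). Cytokinesis and other spindle genes went the other way, with a median of -0.07 over 27 genes and 8 above 0. NUMA1, which anchors spindle poles, differed by -0.65 ± 0.26 SE (limma adjusted p = 0.748), and the augmin subunit gene HAUS1 by -0.65 ± 0.30 SE (limma adjusted p = 0.777). Centrosome genes had a median of 0.09 over 13 genes, with CEP152 at 0.34 and TUBGCP4 at -0.40 (-0.19 without control replicate 1). None of these genes passed the test, and no difference between the lists was tested.

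Genes that control entry into mitosis had a median of 0.02 over 18 genes, with 9 above 0. CKS2, a small subunit bound by cyclin-dependent kinases, read 9.61, 9.54 and 9.73 in EP300 cultures and 10.84, 10.02 and 10.05 in control cultures. All EP300 values were below all control values, with control culture 1 the highest, and the difference of -0.68 ± 0.26 SE (limma adjusted p = 0.748) was -0.41 without that culture. CDKN1A, the p21 inhibitor of cyclin-dependent kinases, read 7.10, 7.37 and 7.32 in EP300 cultures, above the 6.78, 6.88 and 7.0 of control cultures (0.38 ± 0.20 SE, limma adjusted p = 0.803). The transcription factors of G2/M genes had a median of -0.03 over 18 genes, with 9 above 0. FOXM1 read 11.33, 11.46 and 11.47 in EP300 cultures and 10.90, 11.38 and 10.71 in control cultures (0.42 ± 0.23 SE, limma adjusted p = 0.809), and MYBL2 read 9.76, 9.66 and 9.80 in EP300 cultures and 10.31, 10.03 and 9.93 in control cultures (-0.35 ± 0.21 SE, limma adjusted p = 0.82). The differences of the 2 activators thus had opposite signs. The groups overlapped for FOXM1 and not for MYBL2, and neither passed the test. The MuvB subunit gene LIN9 read 5.36, 5.96 and 5.71 in EP300 cultures and 5.19, 5.02 and 4.87 in control cultures, without overlap (0.65 ± 0.23 SE, limma adjusted p = 0.746).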

How the data were processed

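RNA of 6 HS578T cultures was labelled with the GeneChip WT PLUS reagents and hybridised to an array each, per the labels' protocols. The authors deposited 1 value per probe set and array, taken here as log2 because the values run up to 19.93; no label states the scale. The submitters' processing notes name Partek 6.6, while build, background correction and normalization method are not stated there or in the labels. The number of arrays limits the precision, and detection calls were not used here. Gene names came from the platform annotation, which names 17709 probe sets.

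The difference, EP300 minus control, was estimated for all 21448 probe sets with limma 3.58.1 (lmFit, eBayes; R 4.3.3), with no filter or covariate. Benjamini-Hochberg adjustment was made over all of them at 0.05. The fit was tested on simulated data. Errors are SD over 3 cultures or limma's moderated SE. The p-values rest on the spread between cultures, which limma moderates with the spread over all probe sets. If a single pool gave rise to all cultures of a condition, they do not cover the spread between pools.

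Members and lists were chosen with earlier results of these data known. Values on every array are printed for members with an unadjusted p under 0.05, the 5 of lowest p on either side of 0 and 12 genes fixed by name. In each further list the 2 genes with the smallest p are named, with FOXM1 and MYBL2. No set test was run. Quantile normalization, median centring, a level filter, 1 probe set per gene, a variance trend, the replicate number as a block and leaving out each array were tried.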

Additional observations from a re-analysis of the deposited data

How the results depend on the processing

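In every alternative setting limma called 0 of the 41 members at an adjusted p of 0.05, with a variance trend included, which called 4 of all probe sets. The lowest adjusted p of a member in any setting was 0.581, for NEK2. The count of members at an unadjusted p under 0.05 was 2. It was 1 with quantile normalization, against 6.48% of all probe sets. With a variance trend and robust estimation it was 5 (NEK2, CCNB2, NUSAP1, CDC20 and KIF20A, against 6.78% of all probe sets). It ran from 0 (without control replicate 1) to 2 when arrays were left out, with 1 without control replicate 2. The share of all probe sets at that p was then 5.71% to 6.45%. The count of members whose groups did not overlap ran from 10 to 14 without 1 array, where 21.6% to 23.1% of all probe sets did not overlap, since fewer arrays separate more easily. It was 14 without EP300 replicate 1 and 13 without control replicate 2. The median difference ran from -0.063 to 0.077 without 1 array.

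The sign of small differences was not stable, and 23 of the 41 members kept theirs in all settings run, as did the 15 further genes named. With quantile normalization PLK1 was at -0.01 and KIF23 at -0.05. Without 1 array the signs of 18 members turned, with these ranges: PLK1 -0.14 to 0.21, CCNB1 -0.02 to 0.34, TPX2 -0.00137 to 0.29, MKI67 -0.39 to 0.28, AURKB -0.10 to 0.54, TTK -0.23 to 0.37, UBE2C -0.38 to 0.14, CCNA2 -0.48 to 0.02, CDC25B -0.16 to 0.14, PTTG1 -0.12 to 0.11, BUB1B -0.09 to 0.13, BUB3 -0.06 to 0.10, MAD2L1 -0.09 to 0.26, NDC80 -0.25 to 0.09, NUF2 -0.30 to 0.18, KIF4A -0.07 to 0.35, KIF23 -0.12 to 0.07 and DLGAP5 -0.28 to 0.01. Members that kept their sign but moved by over 1.5 times included ASPM (0.09 without control replicate 1, 0.53 without control replicate 3), CENPE (0.63 without EP300 replicate 1, 0.17 without EP300 replicate 3), CENPF (0.47 and 0.13 without EP300 replicates 1 and 2, 0.15 without control replicate 2) and HMMR (-0.08 without control replicate 2). With the replicate number as a block, 0 members passed and 2 were at an unadjusted p under 0.05, against 6.04% of all probe sets. The lowest limma adjusted p of a member was then 0.806, for KIF20A, with NEK2 at 0.817. Over all probe sets, samples of the same number did not deviate together (correlations of deviations -0.002, -0.005 and -0.009). A correlation over the whole table cannot decide whether single genes varied together by number. Other probe sets of a member could not be compared, since each member had 1.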
